A study of Homo sapiens with 11 samples.

Results

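Among 5 cultures of A375 melanoma cells kept under the MEK inhibitor trametinib, 2 had much lower RNA of proliferation genes than the other 3, and these sets are compared here across all genes. The cultures were chosen by measured RNA levels: they were ranked by the mean log2(CPM + 1) of MKI67, TOP2A, CCNB1, CDK1 and PLK1. CPM are counts scaled to an equal library size, here from the library totals. The 2 lowest, persister 1 and persister 5, form the slow-cycling set, and persister 2, 3 and 4 form the cycling set. These are 5 of the 11 libraries of the series. Each came from wild-type A375 cells, an established melanoma line with an activating BRAF mutation, held in 2 nM trametinib for 8 weeks (persister cells). Another 5 libraries came from cells taken after the drug had been withdrawn for 4 weeks, each named after the persister culture of its number, and 1 from untreated parental cells. All are poly(A) RNA of this 1 cell line, and the labels do not say whether the 5 cultures were selected separately, so any p-value measures only the spread between these samples.

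Cells that divide make RNA for replication and mitosis in waves. E2F factors switch on replication genes late in G1, and the B-MYB and FOXM1 complexes switch on mitotic genes in G2. In resting cells the DREAM complex holds both groups down. In melanoma with mutant BRAF the ERK pathway drives cyclin D1 and entry into the cycle, and MEK inhibitors such as trametinib arrest most cells, while some survive as drug-tolerant persisters. RNA levels do not measure a rate of division. In bulk RNA, fewer cycling cells and less of these transcripts per cell cannot be told apart.

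Library totals lay between 56513920 and 82984566 counts. No 2 persister libraries agreed within sampling noise. Counts from mitochondrial genes made up 8.88% of persister 1 and 9.28% of persister 5, against 4.51%, 6.72% and 4.64% of persister 2, 3 and 4. They made up 2.96% of the parental library and 3.15% to 3.70% of the withdrawn libraries. Scaling without these counts left the numbers of lower and higher genes given below unchanged. The scaling factors follow the bulk of genes, so leaving out these few genes could hardly change them. The part of mitochondrial counts in the results was not tested.

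The ranking value was 6.29 in persister 1 and 5.05 in persister 5, and 8.47, 8.19 and 8.11 in persister 2, 3 and 4. The boundary thus lies between 6.29 and 8.11. Parental cells stood at 8.43 and the withdrawn libraries between 8.25 and 8.37, so the cycling persister cultures lay near the level of untreated cells. MKI67, a protein of dividing nuclei (chromosome 10, 128096659 to 128126385, GRCh38), measured 154 and 45.4 CPM in persister 1 and 5. In persister 2, 3 and 4 it measured 707, 496 and 518 CPM, and in parental cells 865. PLK1, a mitotic kinase, measured 39.8 and 11.5 CPM against 174, 150 and 136 CPM, with 153 in parental cells. TOP2A, which untangles DNA strands, measured 183 and 68.7 CPM against 958, 729 and 659 CPM. These values chose the sets and are a description only. For every one of the 5 genes persister 5 was the lowest library and persister 1 the next.

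**Figure D1:**
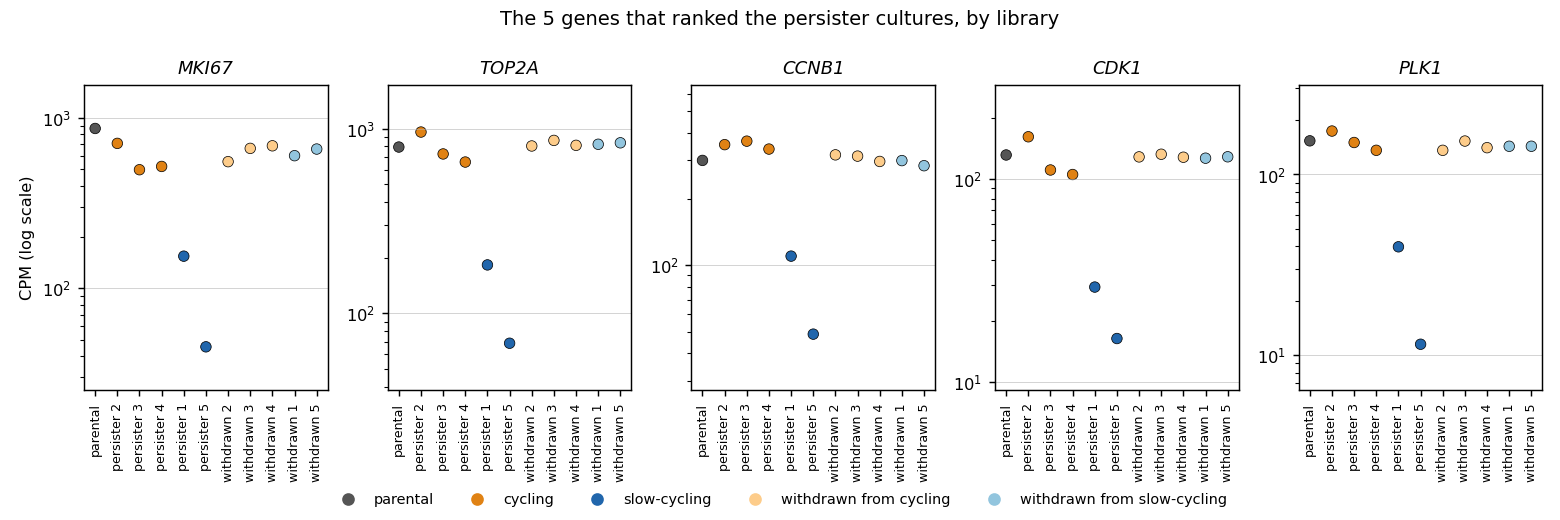
CPM (log axis) of the 5 ranking genes in each of the 11 libraries, 1 point per library, coloured by set. In each panel persister 1 and persister 5 lie below all other libraries, and the withdrawn libraries of both sets sit together.

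Because the ranking used these libraries, the differences between the sets are reported with no test. A gene is counted as lower or higher when its mean log2 CPM differed by at least 2-fold and the 2 sets did not overlap. Of 20488 genes measured, 898 (4.38%) were lower in the slow-cycling set and 920 (4.49%) were higher. Without the fold, 3727 genes (18.2%) lay lower and 3961 (19.3%) higher with no overlap. Protein-coding genes were 645 of the lower and 460 of the higher genes. Among the 10348 genes whose mean log2 CPM was 3 or more, 392 were lower and 87 higher. Persister 5 was below persister 1 in 644 of the 898 lower genes (71.7%). Nearness to untreated cells is given as a description. A call of at least 2-fold keeps the 2 set means apart, so the shares within called genes are partly fixed by the call, and they rest on 1 parental library. In 584 of the lower genes (65.0%) the mean of the cycling set was within 2-fold of parental cells, and in 188 (20.9%) that of the slow-cycling set was. In the higher genes these shares were 47.0% and 24.1%, and over all genes 69.9% and 60.6%. The counts moved with single libraries: 1601 lower and 1944 higher genes without persister 1, 1399 lower without persister 5, and 1431 higher without persister 3. Leaving out persister 1 or 5 leaves 1 library in the slow-cycling set. Lower genes were 998 without persister 2, 1128 without persister 3 and 1130 without persister 4. With fewer libraries the sets overlap less readily, so a rise in a list count below is read beside the count over all genes.

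Genes of mitosis were lower almost throughout. Of 42 other mitosis genes, 40 were at least 2-fold lower and none higher, beside the background of 4.38% lower, and the median log2 difference was -2.44 against 0.02 over all genes. ANLN, a scaffold of the cleavage furrow, measured 97.9 and 25.3 CPM in persister 1 and 5 and 413, 315 and 314 CPM in the cycling set. AURKB, the kinase that corrects chromosome attachment, measured 19.7 and 7.81 CPM against 99.5, 62.8 and 51.3 CPM. BIRC5, its partner survivin, measured 43.6 and 14.7 CPM against 185, 155 and 132 CPM. All 3 lay apart between the sets. CDC20, which activates the anaphase-promoting complex, measured 74.4 and 17.9 CPM against 196, 243 and 220 CPM, and its partner UBE2C 37.7 and 12.1 CPM against 185, 151 and 112 CPM. KIF14, DEPDC1, HJURP and CKAP2L, which act at the spindle or the centromere, were among the 12 largest differences, at -2.83, -2.95, -2.82 and -2.85 on the log2 scale. The exceptions were CDC25B, a phosphatase that activates CDK1, which differed by -0.15, and BUB3, of the spindle checkpoint, by -0.94. The mitosis count held at 40 or 41 without each persister library.

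Genes of S phase were lower by less. Of 39 genes for replication and nucleotide supply, 32 were at least 2-fold lower, all 39 lay lower without overlap, and the median log2 difference was -1.44. RRM2, the small subunit of ribonucleotide reductase, measured 50.4 and 17.0 CPM in the slow-cycling set and 323, 163 and 159 CPM in the cycling set. MCM10, which helps to start replication forks, measured 9.61 and 3.26 CPM against 35.1, 25.4 and 28.8 CPM. MCM6, of the replicative helicase, measured 43.6 and 20.8 CPM against 94.0, 66.6 and 70.6 CPM. PCNA, the sliding clamp, measured 140 and 80.3 CPM against 336, 229 and 227 CPM, and thus kept more of its level than RRM2 did. The smallest differences were those of RPA2 (-0.55) and DUT (-0.56). This count rested on persister 5: without it 18 of the 39 genes were 2-fold lower, and without persister 1 37 were. TK1, thymidine kinase, shows the gap between the 2 cultures, at 52.7 CPM in persister 1 and 8.81 CPM in persister 5 against 61.4 to 90.7 CPM in the cycling set.

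Promoter sequences are shown for letters that were more frequent in windows of the mitosis or the S phase list than in those of all measured genes. The shares of these lists follow from their member genes and not from differences between the cultures, so they are no check of the sets. RefSeq windows (build GRCh38.p14) run from 250 bases before a gene's start to 50 after it, and the part before the start is printed, 5′ to 3′. Capitals mark matches on either strand to the cell cycle genes homology region (CHR: TTTGAA or TTCGAA), which the DREAM and B-MYB complexes bind, to the CCAAT box (CCAAT), bound by NF-Y, and to an E2F site (TTTCCCGC, TTTCGCGC, TTTGCCGC or TTTGGCGC). The first 3 are genes of the ranking. MCM6 was chosen afterwards as the S phase gene with the most E2F matches.
PLK1 (chr16:23678639-23678888, plus strand): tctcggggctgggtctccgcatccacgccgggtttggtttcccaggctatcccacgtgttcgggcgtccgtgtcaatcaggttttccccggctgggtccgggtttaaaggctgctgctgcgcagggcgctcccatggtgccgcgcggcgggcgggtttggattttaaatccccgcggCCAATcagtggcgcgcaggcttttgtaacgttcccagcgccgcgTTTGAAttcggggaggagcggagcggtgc
TOP2A (chr17:40417897-40418146, minus strand): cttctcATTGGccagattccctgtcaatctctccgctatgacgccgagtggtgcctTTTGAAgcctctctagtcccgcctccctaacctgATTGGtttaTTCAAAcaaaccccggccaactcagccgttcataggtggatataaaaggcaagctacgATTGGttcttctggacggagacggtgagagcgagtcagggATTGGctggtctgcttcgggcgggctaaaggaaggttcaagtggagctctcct
MKI67 (chr10:128126424-128126673, minus strand): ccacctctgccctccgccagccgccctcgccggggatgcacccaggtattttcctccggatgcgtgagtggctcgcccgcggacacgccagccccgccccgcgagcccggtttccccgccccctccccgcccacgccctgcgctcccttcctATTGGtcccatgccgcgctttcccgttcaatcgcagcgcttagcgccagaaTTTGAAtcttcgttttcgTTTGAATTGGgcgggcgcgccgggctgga
MCM6 (chr2:135876444-135876693, minus strand): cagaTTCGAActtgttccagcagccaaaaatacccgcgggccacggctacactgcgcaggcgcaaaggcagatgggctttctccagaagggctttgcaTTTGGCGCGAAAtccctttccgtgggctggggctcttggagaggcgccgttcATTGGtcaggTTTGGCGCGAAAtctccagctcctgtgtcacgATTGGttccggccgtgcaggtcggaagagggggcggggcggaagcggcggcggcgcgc

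PLK1 has 1 CHR match, from base 29 to base 24 before its start, and a CCAAT match upstream of it. MKI67 has 2 CHR matches, the nearer one in the same place as that of PLK1 and overlapping a CCAAT match by 1 base. TOP2A has 2 CHR and 4 CCAAT matches. MCM6 has 4 E2F matches in 2 overlapping pairs, and 1 CHR match far from the start. The printed stretch of CCNB1 had 2 CCAAT matches and no CHR letters.

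Over the whole windows, CHR letters were in 31 of 48 windows of the mitosis list (64.6%) and in 4 of 48 windows of the S phase list (8.33%). E2F letters showed the opposite, with 47.9% of S phase windows and 4.17% of mitosis windows. These shares describe the lists, whatever the RNA levels of the cultures. Those of lower and higher genes, given below, depend on the calls. Of 35116 windows in the table, 16.4% held CHR, 34.6% CCAAT and 3.31% E2F letters. Among windows of measured protein-coding genes the shares were 12.3%, 34.6% and 4.60%. Of 640 lower protein-coding genes other than the ranking genes, 490 matched the table, with 691 windows. CHR letters were in 25.3% of these, CCAAT in 45.2% and E2F in 11.4%. Lower genes in none of the mitosis, S phase, G1/S and DNA repair lists still had CHR letters in 24.1% and E2F letters in 8.78% of windows. Windows of higher genes had 11.8% and 2.20%, near or below the measured genes. With only the bases before the start, CHR letters were in 47.9% of mitosis windows and 19.1% of windows of lower genes. A match is a description and not a site, and windows of 1 gene can overlap.

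**Figure D2:**
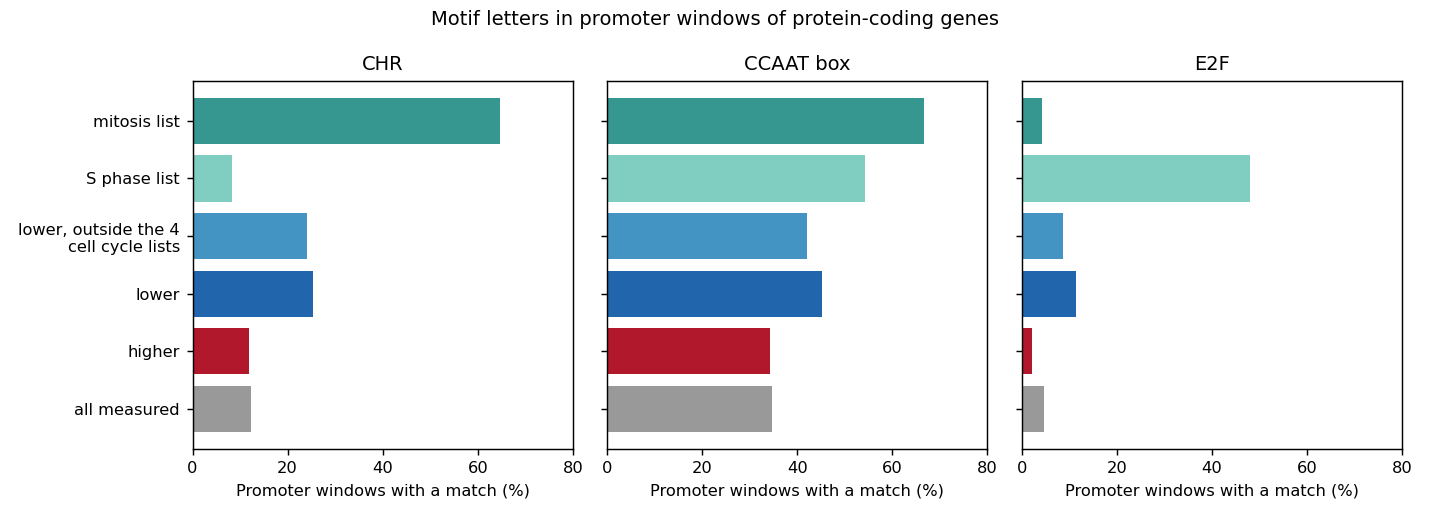
Percent of promoter windows with at least 1 match to CHR, CCAAT or E2F letters, in 6 sets of protein-coding genes. The mitosis list reaches 64.6% for CHR and the S phase list 47.9% for E2F, against 12.3% and 4.60% of all measured protein-coding genes. The shares of these lists follow from their member genes and not from differences between the cultures.

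Regulators of the step from G1 to S were lower in part. Of 30, 12 were at least 2-fold lower and none higher, and 21 lay lower and 2 higher without overlap, with a median log2 difference of -0.72. CCNA2, cyclin A2, measured 19.6 and 7.89 CPM against 109, 69.5 and 78.9 CPM. MYBL2, which encodes B-MYB, measured 57.5 and 13.4 CPM against 150, 123 and 109 CPM. FOXM1 measured 84.5 and 20.4 CPM against 156, 139 and 143 CPM. E2F8, a repressor, was near 1 CPM in the slow-cycling set, at 1.17 and 0.355 CPM against 8.10, 3.71 and 3.21 CPM. E2F1 (log2 difference -1.62), CCNE2 (-1.78), CDC25A (-1.88) and CDK2 (-1.18) were lower as well. Other members differed less. CCND1, cyclin D1 and a target of ERK signalling, measured 202 and 141 CPM in the slow-cycling set and 421, 200 and 125 CPM in the cycling set, so the sets overlapped. CDK4 (-0.26), CDK6 (-0.35), CCNE1 (-0.01) and E2F4 (-0.24) stayed within 1.5-fold. Of these, CDK4 and E2F4 lay lower without overlap.

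Inhibitors of cyclin-dependent kinases were not higher in the slow-cycling set. CDKN1A, which encodes p21, measured 634 and 480 CPM in persister 1 and 5 and 520, 495 and 428 CPM in persister 2, 3 and 4, against 60.6 CPM in parental cells. It was thus high in all 5 cultures and overlapped between the sets. CDKN1B (p27) measured 37.2 and 45.1 CPM against 49.3, 42.4 and 56.0 CPM, and also overlapped. CDKN2C and CDKN2D, inhibitors of CDK4 and CDK6, lay lower without overlap, at -0.57 and -0.63. Only CDKN3 of 7 measured inhibitors passed the fold, at 10.6 and 3.95 CPM against 26.1, 25.0 and 20.9 CPM. It encodes a phosphatase that acts on CDK2 and CDK1 and is itself transcribed with the cycle. Of 25 p53 target genes 1 was lower, the kinase gene PLK2, whose log2 difference of -1.23 was -0.47 without persister 5, and none was higher.

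Genes of DNA repair followed S phase. Of 27, 17 were at least 2-fold lower and none higher, with a median of -1.54. BRCA2, which acts in repair by homologous recombination, measured 6.77 and 2.44 CPM against 40.8, 20.1 and 23.1 CPM. BRIP1, a helicase that binds BRCA1, measured 8.32 and 6.43 CPM against 41.5, 29.5 and 40.2 CPM. FANCD2, of the crosslink repair pathway, measured 19.0 and 9.52 CPM against 66.8, 41.4 and 46.9 CPM. The damage sensors ATM (-0.15) and ATR (-0.21) and the polymerase PARP1 (-0.31) overlapped between the sets. Among 17 histone genes, H2AX and H2AZ1 were lower and H2BC21 was higher. H2AZ1 differed by -1.07, and by -0.59 without persister 5. Reads from most histone genes are limited in poly(A) libraries.

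**Figure D3:**
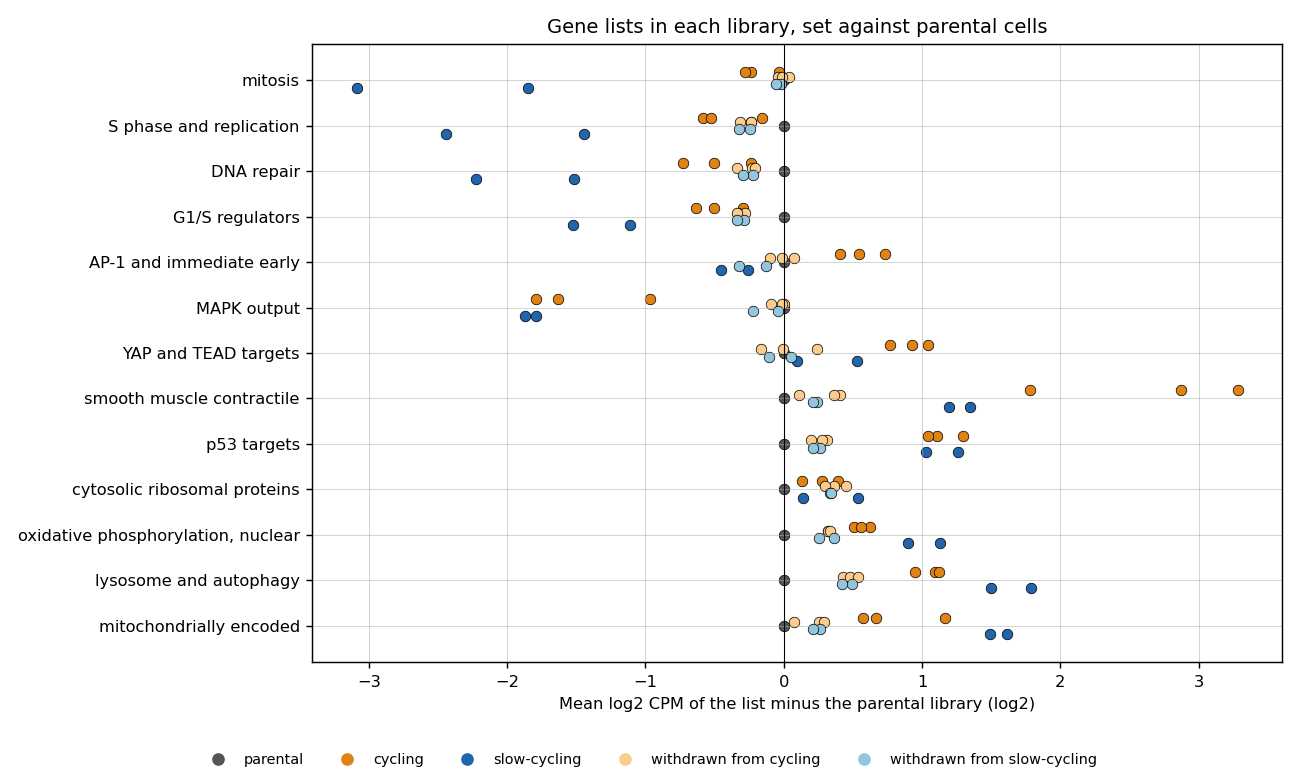
Mean log2 CPM of 13 gene lists in each library minus that of the parental library, 1 point per library. The mitosis and S phase lists of persister 1 (-1.85 and -1.44) and persister 5 (-3.09 and -2.44) lie to the left of all other libraries, while the mitochondrially encoded, lysosome and nuclear oxidative phosphorylation lists of both lie to the right.

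Among protein-coding genes whose sets did not overlap and whose mean log2 CPM was 3 or more, the 3 largest differences downward were FOS, EGR1 and FOSB. These are immediate early genes, which are transcribed within minutes of a growth signal. FOS, a subunit of the AP-1 factor (chromosome 14, 75278774 to 75282230), measured 1.94 CPM in persister 1 and 12.8 CPM in persister 5. It measured 57.8, 66.5 and 67.8 CPM in the cycling set and 46.5 CPM in parental cells. EGR1 (chromosome 5, 138465490 to 138469315) measured 0.737 and 6.13 CPM against 52.0, 17.4 and 18.4 CPM, with 101 CPM in parental cells. For both genes persister 1, not persister 5, was the lowest culture, unlike for the 5 ranking genes. The log2 differences were -3.67 for FOS and -3.56 for EGR1, and -2.31 and -2.05 without persister 1. FOSB, another AP-1 subunit, measured 3.06 and 3.22 CPM against 24.6, 35.6 and 29.9 CPM. Of 16 AP-1 and immediate early genes 4 (25%) were lower and none higher, beside 4.38% of all genes lower: FOS, FOSB, FOSL1 and KLF2. The count was 6 without persister 4, a setting in which 1130 of all 20488 genes were lower, against 898 with every library. It also rose without persister 1, which leaves 1 slow-cycling library. FOSL1 measured 121 and 39.6 CPM against 359, 169 and 132 CPM. JUNB (0.10), IER2 (-0.07) and KLF4 (-0.15), also early genes, differed little. JUND differed by 0.56 and JUN by -0.74.

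The EGR1 promoter is printed for its CArG boxes, the sites of serum response factor, which relays growth signals and actin state to early genes. Here capitals mark the CArG matches alone. The stretch also holds CHR letters (TTCAAA, in lower case) from base 29 to base 24 before the start. The CArG motif was searched after the values were seen.
EGR1 (chr5:138465229-138465478, plus strand): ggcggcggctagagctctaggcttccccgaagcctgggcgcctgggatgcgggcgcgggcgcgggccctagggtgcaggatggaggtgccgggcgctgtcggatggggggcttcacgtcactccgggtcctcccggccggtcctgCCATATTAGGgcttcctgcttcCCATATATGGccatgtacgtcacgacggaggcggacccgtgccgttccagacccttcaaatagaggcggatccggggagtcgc

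CArG letters were in 1.29% of all windows, 1.17% of windows of measured protein-coding genes, 2.75% of windows of lower genes and 0.601% of windows of higher genes. None of the 16 matched windows of the AP-1 and immediate early list held them. That list does not include EGR1, and 13 of its 16 genes matched a window. Letters farther than 250 bases before the start were not searched.

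Most genes whose RNA follows the activity of the ERK pathway overlapped between the sets. DUSP6, a phosphatase of ERK, measured 21.2 and 23.6 CPM in persister 1 and 5 and 33.1, 22.2 and 23.9 CPM in persister 2, 3 and 4, against 168 CPM in parental cells. SPRY4, an inhibitor of the pathway, measured 12.8 and 27.2 CPM against 24.0, 13.2 and 8.73 CPM, with 445 CPM in parental cells. Both overlapped, and both were low in all 5 cultures under the drug. Of 28 genes of MAPK output, 5 (17.9%) were lower (FOS, EGR1, IL11, FOSL1 and MYC) and none higher. Over all genes 4.38% were lower and 4.49% higher. The count of lower members fell without persister 5, which leaves 1 slow-cycling library. Without the fold, 6 of the 28 lay lower and 2 higher with no overlap, beside 18.2% and 19.3% of all genes. MYC measured 9.26 and 4.38 CPM against 30.5, 10.9 and 11.7 CPM. IL11 was low in every culture, at 0.230 and 0.355 CPM against 1.99, 0.882 and 1.18 CPM. DUSP4, another dual-specificity phosphatase, lay higher without overlap, at 187 and 180 CPM against 148, 123 and 88.5 CPM.

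Lists of contractile genes, YAP and TEAD targets and matrix genes held some lower members. Over all genes 4.38% were at least 2-fold lower and 18.2% lay lower without overlap. MYL9, a light chain of smooth muscle myosin, measured 11.4 and 29.5 CPM in the slow-cycling set and 52.8, 301 and 177 CPM in the cycling set, against 4.07 CPM in parental cells. TPM1, a tropomyosin, measured 176 and 146 CPM against 400, 430 and 464 CPM. Of 17 smooth muscle genes 3 (17.6%) were lower, MYL9, TPM1 and ACTG2, and 9 lay lower without overlap, with a median of -0.92. ACTG2 was near the floor, at 0 and 0 CPM against 0.0369, 0.639 and 0.803 CPM. Without persister 2 the count of lower members was 8 and without persister 3 it was 5. In these settings 998 and 1128 of all 20488 genes were lower. The smooth muscle count also rose without persister 1 or 5, which leaves 1 slow-cycling library. MYOCD, the coactivator that drives this program, measured 5.87 and 0.546 CPM against 2.71, 72.6 and 166 CPM, so persister 2 kept the sets from separating. Of 25 targets of YAP and TEAD, 5 were lower and 12 lay lower without overlap. The count rose without persister 1 and fell without persister 5, each of which leaves 1 slow-cycling library. CCN2, a matricellular target, measured 149 and 91.2 CPM against 405, 248 and 354 CPM, and CCN1 251 and 119 CPM against 389, 413 and 497 CPM. TNC, a matrix glycoprotein, measured 270 and 133 CPM against 386, 817 and 792 CPM, below the parental 1652 CPM in every culture. TNC and COL4A1 were the 2 lower genes (6.25%) of 32 matrix genes, a share near that of all genes, and FBN2 was higher. FBN2 was below 1 CPM in every culture, at 0.737 and 0.573 CPM against 0.221, 0.0761 and 0.170 CPM. The matrix count was 5 without persister 2, a setting in which 998 of all 20488 genes were lower. It also rose without persister 5, which leaves 1 slow-cycling library.

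No list had more than 2 members at least 2-fold higher in the slow-cycling set, and the genes named next are mostly from the 12 largest differences upward among protein-coding genes without overlap whose mean log2 CPM was 3 or more. JUP, which encodes plakoglobin of cell junctions (chromosome 17, 41754604 to 41786931), showed the largest of these. It measured 102 and 139 CPM against 18.9, 18.6 and 25.2 CPM, with 5.11 CPM in parental cells. CNTN4, a contactin of neurons, measured 57.0 and 70.4 CPM against 9.64, 10.6 and 20.6 CPM. CPVL, a carboxypeptidase, measured 59.3 and 51.8 CPM against 13.0, 15.8 and 15.7 CPM, while parental cells had 14.3. FBXO32, a ubiquitin ligase subunit known from muscle wasting and a target of FOXO factors, measured 263 and 266 CPM against 78.8, 110 and 76.8 CPM. DSC3, a desmocollin of desmosomes, differed by 2.17 but had a mean log2 CPM under 3. It measured 16.7 and 21.5 CPM against 4.46, 3.59 and 4.61 CPM. It was the 1 higher gene of 8 measured keratinocyte markers. Their summed level was 81.8 and 77.8 CPM in persister 1 and 5, and 54.3 to 70.2 CPM in the cycling set. The defining keratin KRT14 was at 0.921 and 0.218 CPM there and at 5.37 CPM in parental cells.

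The other large differences upward were CDH7, RAB26, COL17A1, AKR1C2, XG, STRA6, SLC22A18 and SLAMF7. XG measured 37.5 and 25.3 CPM against 1.86, 24.8 and 14.7 CPM. Its sets thus barely separated, and persister 2 lay far below the other cultures. CDH7, a cadherin, measured 22.2 and 26.9 CPM against 5.44, 1.40 and 13.2 CPM. STRA6, the receptor for retinol-binding protein, measured 49.5 and 21.4 CPM against 9.77, 9.23 and 9.40 CPM. SLAMF7, a receptor known from immune cells, measured 57.5 and 47.6 CPM against 15.8, 21.6 and 14.0 CPM. No leukocyte marker moved with it: the 3 measured, PTPRC, CD14 and CSF1R, summed to 0.92 and 1.07 CPM in persister 1 and 5 and to 0.94 to 1.5 CPM in persister 2, 3 and 4. COL17A1 was highest in persister 1, at 33.4 CPM, with 10.9 CPM in persister 5 and 1.33 to 9.58 CPM in the cycling set. AKR1C2 reads may be shared with its close copy AKR1C1. NETO1, a receptor subunit known from neurons, went the other way, at 1.58 and 3.36 CPM against 6.40, 40.1 and 30.3 CPM.

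**Figure D4:**
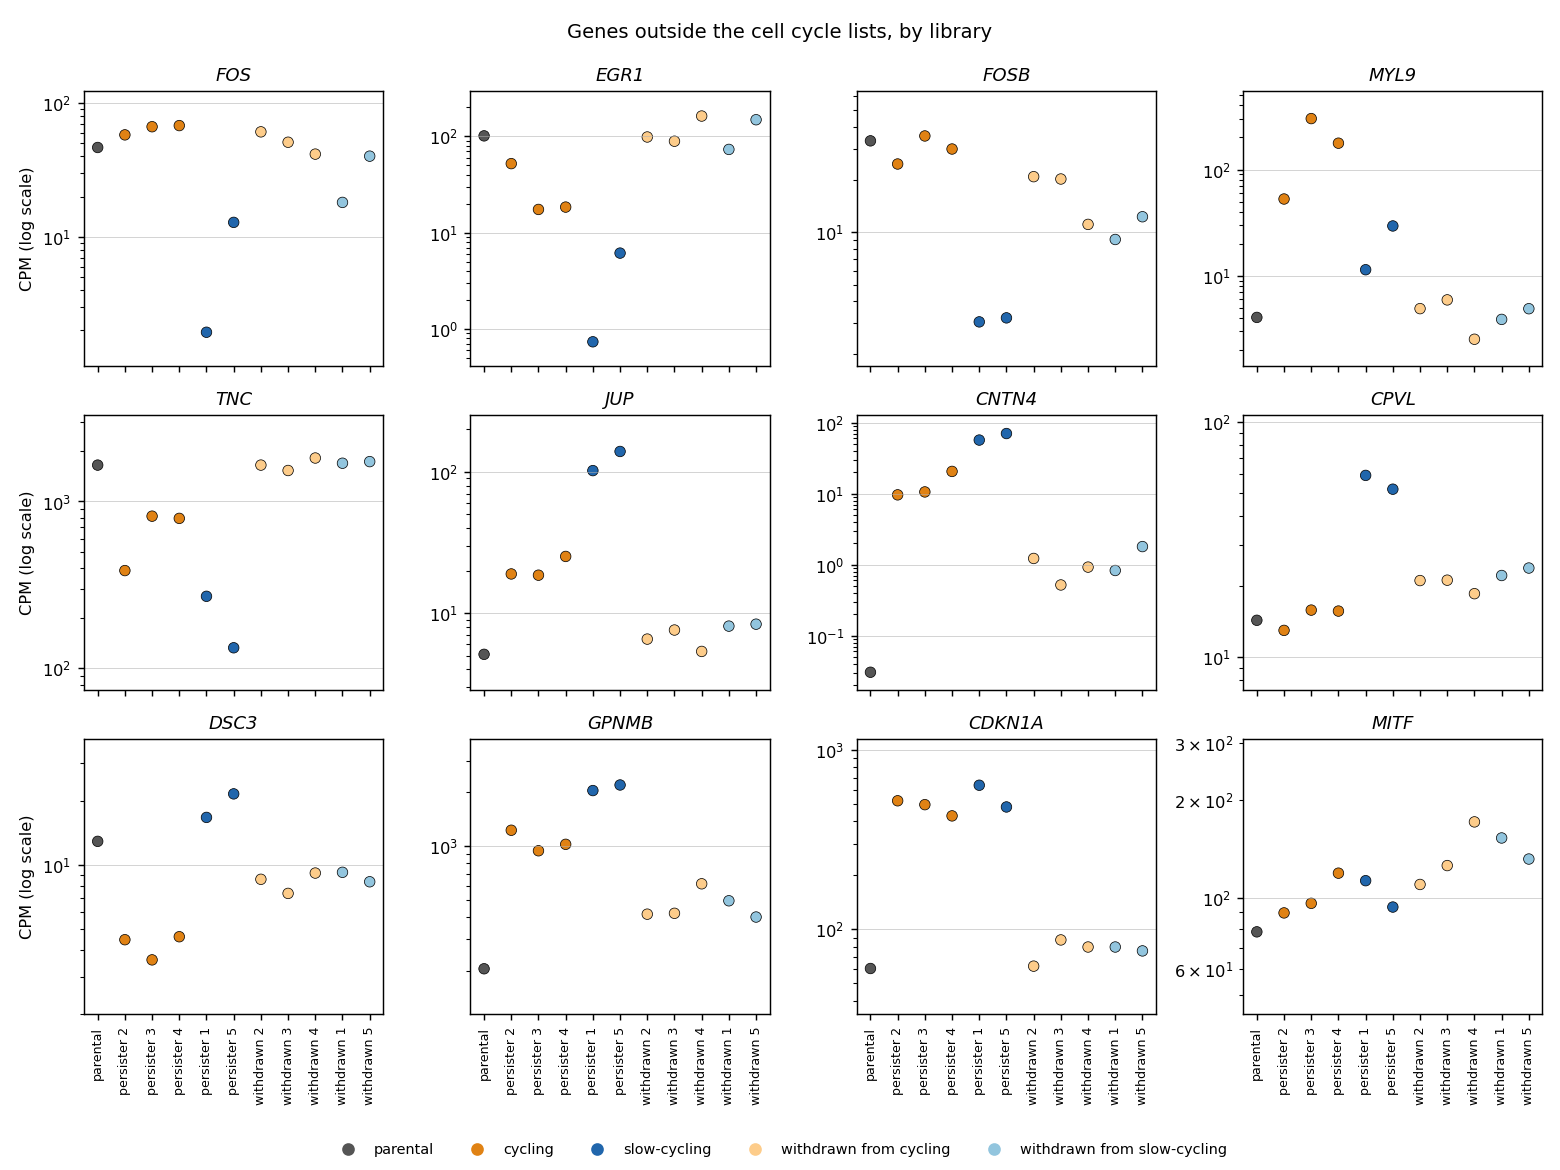
CPM (log axis) of 12 genes outside the cell cycle lists in each library, 1 point per library. FOS, EGR1, FOSB, MYL9 and TNC are lowest among persister libraries in persister 1 and 5, JUP, CNTN4, CPVL, DSC3 and GPNMB are highest there, and CDKN1A and MITF overlap.

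Genes of respiration and of the lysosome were higher by small amounts in nearly every member. All 13 protein-coding genes of the mitochondrial genome lay higher without overlap, beside a background of 19.3%, with a median log2 difference of 0.73 and none past 2-fold. MT-CO1, of complex IV, measured 18614 and 20452 CPM against 9804, 13718 and 10232 CPM. Of 33 nuclear genes of oxidative phosphorylation 29 lay higher without overlap, with a median of 0.45 and none past 2-fold. COX5B, also of complex IV, measured 182 and 189 CPM against 98.7, 107 and 96.8 CPM. Of 29 genes of lysosomes and autophagy 25 lay higher without overlap, with a median of 0.51. NEU1, a sialidase, measured 105 and 107 CPM against 56.2, 63.4 and 53.7 CPM. TFEB, a factor that drives lysosomal genes, was the 1 member past the fold, at 2.78 and 4.00 CPM against 1.09, 1.66 and 1.31 CPM. Without each persister library the 3 counts were 13, 29 to 32 and 25 to 28. PPARGC1A, the coactivator of mitochondrial biogenesis, measured 62.0 and 44.8 CPM against 19.4, 18.2 and 30.9 CPM, with 0.275 CPM in parental cells. The share of mitochondrial counts given above moves with these lists. Among 37 cytosolic ribosomal protein genes none lay apart (median 0.05). Of 24 glycolysis genes 7 lay higher and 3 lower without overlap.

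Markers of melanoma cell state mostly overlapped. MITF, the lineage factor of melanocytes, measured 113 and 93.5 CPM in the slow-cycling set and 89.7, 96.0 and 119 CPM in the cycling set. SOX10, of the neural crest, measured 29.2 and 65.8 CPM against 41.4, 36.1 and 86.6 CPM, with 635 CPM in parental cells. AXL, a receptor tyrosine kinase of the undifferentiated state, measured 299 and 115 CPM against 507, 266 and 212 CPM. NGFR, a marker of neural crest-like cells, measured 14.6 and 35.2 CPM against 34.4, 33.8 and 91.1 CPM. None of 21 neural crest genes passed the fold in either direction. Of 16 pigmentation genes 2 (12.5%) were higher, beside 4.49% of all genes: GPNMB and TRPM1, the latter below 1 CPM in every library. GPNMB, a glycoprotein of melanosomes and lysosomes, measured 2043 and 2195 CPM against 1225, 940 and 1021 CPM. Of 23 genes of the AXL-high state 4 (17.4%) were lower, beside 4.38% of all genes, namely FOSL1, CCN2, TPM1 and CCN1. The count was 7 without persister 3, a setting in which 1128 of all 20488 genes were lower. It rose without persister 1 and fell without persister 5, each of which leaves 1 slow-cycling library. KDM5B, a demethylase described as a mark of slow-cycling melanoma cells, measured 174 and 200 CPM against 116, 168 and 194 CPM and overlapped.

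The series concerns the Mediator complex, which links transcription factors to RNA polymerase II. None of 33 Mediator genes passed the fold, 11 lay lower and 2 higher without overlap, and the median was -0.12. Over all genes 18.2% lay lower and 19.3% higher without overlap. CDK8, its kinase, measured 19.3 and 19.0 CPM against 21.9, 20.6 and 22.0 CPM, a narrow gap of -0.16. MED12 and CDK19 overlapped. MED12 measured 45.2 and 45.1 CPM against 33.1, 47.4 and 55.8 CPM.

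Few members of the signalling and immune lists passed the fold. Over all genes 4.38% were at least 2-fold lower and 4.49% higher. Of 41 interferon response genes 1 (2.44%), GBP1, was lower, at 15.9 and 23.8 CPM against 46.8, 62.2 and 61.8 CPM. The interferon count rose without persister 5, which leaves 1 slow-cycling library. None of 25 antigen presentation, 24 TGF-beta, 23 cholesterol synthesis or 18 heat shock genes passed the fold. Of 25 inflammatory genes 3 (12%) were lower: CXCL8, IGFBP3 and CXCL2. CXCL2 was low in every culture, at 0.461 and 0.273 CPM against 1.35, 0.776 and 0.742 CPM. CXCL8, a chemokine, measured 3.42 and 3.70 CPM against 43.2, 6.12 and 6.49 CPM, with persister 2 far above the other 4. The inflammatory count was 1 without persister 2 and 6 without persister 4. In these settings 998 and 1130 of all 20488 genes were lower. The inflammatory count also rose without persister 1, which leaves 1 slow-cycling library. Of 32 receptor tyrosine kinases NTRK3, FLT1 and FGFR3 (9.38%) were lower, FLT1 at 2.03 and 2.18 CPM against 7.10, 5.43 and 18.2 CPM. NTRK3 was near the floor, at 0 and 0.0273 CPM against 0.350, 0.167 and 0.0851 CPM. FGFR3 was also low, at 0.568 and 0.573 CPM against 1.42, 0.867 and 1.39 CPM. The kinase count was 5 without persister 2, a setting in which 998 of all 20488 genes were lower. It also rose without persister 5, which leaves 1 slow-cycling library. Of 25 stress genes DDIT3, a factor of the integrated stress response, was higher at 14.3 and 17.7 CPM against 8.06, 7.52 and 6.66 CPM. PSAT1, of serine synthesis, was lower, and its difference of -1.05 was -0.57 without persister 5. Of 22 drug tolerance genes HES1 was lower and PPARGC1A higher.

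Markers of other cell types were examined as lists. The 9 measured fibroblast markers summed to 84.0 and 386 CPM in persister 1 and 5 and to 218, 354 and 183 CPM in the cycling set, and none passed the fold. LUM, lumican, made up much of these sums, at 32.6 and 278 CPM against 136, 292 and 122 CPM. COL1A2, a defining collagen, was at 1.51 and 0.601 CPM. Of 6 endothelial markers PECAM1 was lower, below 0.25 CPM in all 5, and their sum was 6.07 and 11.1 CPM against 8.74 to 23.0 CPM.

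Whether the difference outlasted the drug was tested in the withdrawn libraries, which the ranking did not use. The libraries from persister 1 and 5 were compared with those from persister 2, 3 and 4. By edgeR's quasi-likelihood test with Benjamini-Hochberg adjustment, 0 of 20004 genes (0%) passed 0.05. At an unadjusted p under 0.05 were 270 genes (1.35%) by edgeR, 183 by DESeq2 and 290 by limma-voom. DESeq2 called 1 gene and limma-voom 0. PLK1 measured 143 and 143 CPM against 136, 153 and 141 CPM, a log2 difference of 0.01 with a 95% interval of -0.13 to 0.14. For MKI67 the interval was -0.21 to 0.21, for TOP2A -0.12 to 0.15, for RRM2 -0.19 to 0.08 and for BRCA2 -0.10 to 0.29. The median over the mitosis list was -0.03 and over the S phase list -0.01. Of 787 lower genes tested there, 593 (75.3%) had an interval within 2-fold in both directions, as did 74.9% of all genes. Of 665 higher genes, 300 (45.1%) did. The interval of FOS was wider, from -2.17 to 0.57, since withdrawn 1 stood at 18.1 CPM and the others at 40.1 to 60.9 CPM. That of EGR1 ran from -1.58 to 1.46. Such genes do not show that the cultures were alike. The withdrawn libraries varied less than the persister libraries, with a median SD of log2 CPM of 0.0737 against 0.243 (n = 5 each). Across 18699 genes the persister and withdrawn differences had a Pearson correlation of 0.07, and of 0.11 across the 10331 whose mean log2 CPM was 3 or more. Genes are not independent replicates, and no p is given.

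**Figure D5:**
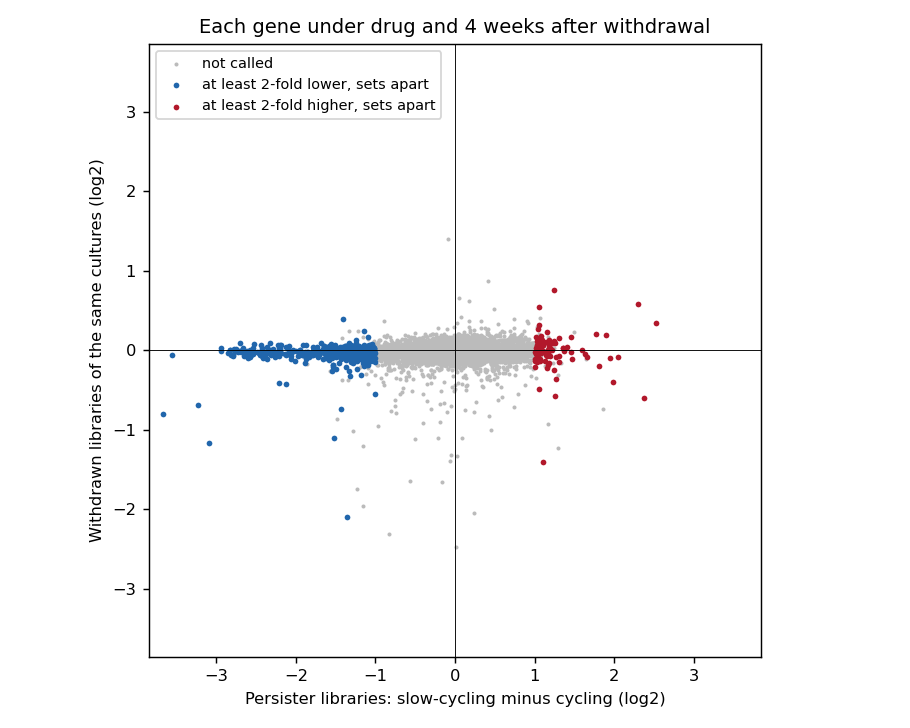
Log2 difference of each gene between the sets in the persister libraries (x axis) and between the withdrawn libraries of the same cultures (y axis), for genes whose mean log2 CPM was 3 or more. Genes at least 2-fold lower (blue) or higher (red) under the drug lie mostly along the horizontal line of no difference after withdrawal.

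Among the genes called in an alternative fit was JUN, a subunit of AP-1, named here after its values were seen. It measured 7.16 and 9.51 CPM in withdrawn 1 and 5 and 14.2, 14.7 and 14.5 CPM in withdrawn 2, 3 and 4. Under the drug the same cultures had 74.4 and 57.8 CPM against 101, 107 and 123 CPM, so the sets did not overlap in either state. The withdrawn log2 difference was -0.78 ± 0.13 (SE; 95% interval -1.07 to -0.50), with an edgeR adjusted p of 0.9998. Over 11 fits its adjusted p ranged from 7.30e-07 to 1, and 2 of them called it, DESeq2 (adjusted p = 0.000919) and edgeR without a filter on low counts. JUP, the largest of the upward differences named under the drug, differed by 0.35 after withdrawal (95% interval 0.01 to 0.69, edgeR adjusted p = 0.9998), at 8.09 and 8.35 CPM against 6.55, 7.59 and 5.36 CPM. IGFBP3, which binds insulin-like growth factors, was lower without overlap in both states. It measured 68.9 and 77.2 CPM in withdrawn 1 and 5 against 85.6, 86.7 and 91.4 CPM, a log2 difference of -0.26 (95% interval -0.41 to -0.11, edgeR adjusted p = 0.9998). At an unadjusted p under 0.05 by edgeR and in the same direction as under the drug were 4 of the 787 lower and 15 of the 665 higher genes tested. Over all 20004 genes tested 270 (1.35%) reached that p in either direction. This share counts both directions, so it is not a like background for the 2 counts in 1 direction.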

How the data were processed

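Poly(A) RNA of 11 A375 libraries was sequenced with a stranded kit, per the labels' protocols. Per the submitters' processing notes, the tools were bcl2fastq, HISAT2 and HTSeq with hg38. Neither versions nor the strand setting of the counting are stated there. The authors deposited whole-number read counts per gene, not normalized and not pooled. All 58721 gene IDs matched GENCODE release 29, which gave symbols and GRCh38 coordinates (1-based). Because strand use is not stated, genes that overlap on opposite strands may share reads. This holds for 23 of 90 named genes, among them PLK1 and CCNA2.

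CPM and log2 CPM (prior count 2) were computed with TMM factors over all 11 libraries (edgeR 4.0.16, R 4.3.3), and genes were kept by filterByExpr (minimum count 10, minimum total 15). The ranking used CPM from column totals and a pseudocount of 1. The withdrawn test was edgeR's robust quasi-likelihood test on 5 libraries, set by culture number, adjusted by Benjamini-Hochberg over all genes tested, threshold 0.05. Alternatives used DESeq2 1.42.0 and limma 3.58.1. At these library totals, 56513920 counts or more, the number of libraries limits the precision. The withdrawn test and the fold and overlap call of the persister libraries were run on simulated counts with known changes. The outcomes are not given here, and no result above rests on them. The other steps were not simulated.

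The sets and the 34 gene lists were chosen with earlier results of these data known. Named genes are the 5 ranking genes, the 12 largest differences in each direction among protein-coding genes past the fold whose mean log2 CPM was 3 or more, up to 3 members of each list, and 20 genes of interest. Other genes are named as examples of their list. Genes of the Y chromosome and XIST are not reported, and some other genes are not reported here.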

Additional observations from a re-analysis of the deposited data

Results flagged for a closer look

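The values below stood apart from the other 4 libraries of their group (5 persister or 5 withdrawn libraries) by a gap of more than 0.71 of the group's range, the 95% limit of Dixon's test for 5 values. For single genes the gap and the range were taken on log2 CPM, and the CPM are quoted. Of 247 groups of values 15 stood apart in this way, and chance flags about 1 in 20. Among persister libraries, persister 2 stood apart in CXCL8 (43.2 CPM, the others 3.42 to 6.49), in DUSP6 (33.1 CPM, the others 21.2 to 23.9) and in the MAPK output list (mean log2 CPM 5.38, the others 4.48 to 4.72). Persister 1 stood apart in the glycolysis list (mean log2 CPM 7.32, the others 7.14 to 7.17).

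Among withdrawn libraries, withdrawn 3 stood apart in CKAP2L (82.5 CPM), ANLN (299 CPM), FOSL1 (156 CPM), CDK8 (28.4 CPM), the interferon response list (mean log2 CPM 3.12), the keratinocyte markers (mean log2 CPM -0.38) and the share of mitochondrial counts (3.15%, the others 3.61% to 3.70%). Withdrawn 5 stood apart in NETO1 (0.0275 CPM, the others 0.210 to 0.385), MCM10 (40.6 CPM, the others 44.3 to 45.9) and the heat shock list (mean log2 CPM 7.62). Withdrawn 2 stood apart in the Mediator list (mean log2 CPM 4.90, the others 4.85).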

How the results depend on the processing

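Persister 1 and 5 stayed the 2 lowest cultures in all 9 other rankings: without each marker, by the S phase list, by the mitosis list, by both, and on TMM-scaled CPM. These rankings reuse the same 5 libraries and the ranking genes or other cell cycle genes. They could hardly have come out otherwise and are no independent check of the sets. The counts of 898 lower and 920 higher genes were within 1.5 times of these with column totals, RLE factors, a minimum of 10 counts in 2 libraries, prior counts of 0.5 and 5, and without mitochondrial counts (added after seeing the data). Without a low-count filter 1517 genes were higher. At a fold of 1.5 there were 1794 lower and 2057 higher genes, and at a fold of 4 213 and 98. Leaving out each persister library gave 998 to 1601 lower and 836 to 1944 higher genes, the most of both without persister 1. No scaling moved the median of all genes by more than 0.1, and no named gene past the fold changed sign. Of 382 list counts under an alternative, 86 moved by over 1.5 times, most of them counts of 5 or fewer.

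In the withdrawn libraries the count of 0 became 3 without a low-count filter (ABCA8, JUN and CCBE1) and 1 with DESeq2 (JUN). Leaving out each withdrawn library gave 0 to 1, namely DNAI2 without withdrawn 1 and ENPP2 without withdrawn 4. RLE scaling, limma-voom and a fit of all 11 libraries gave 0. No paired analysis was possible because the 2 sets hold different culture numbers. With 2 libraries against 3, small differences are within the error.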

Other observations

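Gene classes differed in how their genes divided between the 2 directions. Of 1548 lincRNA genes 156 (10.1%) were at least 2-fold higher in the slow-cycling set without overlap and 74 (4.78%) lower, and of 1370 antisense genes 131 (9.56%) were higher and 40 (2.92%) lower. Among 14435 protein-coding genes the shares were 3.19% higher and 4.47% lower. Processed pseudogenes were close to these, with 41 of 1385 (2.96%) higher and 60 (4.33%) lower. Of 204 sense-intronic genes 24 (11.8%) were lower and 10 (4.90%) higher. Reads of antisense genes cannot be told apart from those of their partners if the counting ignored strand.

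The 2 slow-cycling cultures also differed from each other, and so did the cycling ones. Persister 1 had TUBD1, a tubulin gene, at 63.5 CPM against 10.2 to 13.7 CPM in the other 4, and GDF15, a stress-induced cytokine, at 55.6 CPM against 5.79 to 16.0 CPM. Persister 5 had PCSK1, a prohormone convertase, at 1384 CPM against 235 to 432 CPM, and PRRX1, a mesenchymal homeobox factor, at 142 CPM against 18.1 to 38.6 CPM. PRRX1 was at 285 CPM in parental cells. IL7R, the receptor for interleukin 7, was lowest in persister 5, at 27.0 CPM against 150 to 349 CPM. Persister 4 had POSTN, a matrix protein, at 3202 CPM against 75.6 to 225 CPM, and persister 2 had FST, which binds activins, at 75.0 CPM against 3.85 to 5.85 CPM. These genes are the extremes of each library and were chosen by their values, with no test.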
